A study of Homo sapiens with 6 samples.

Results

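Sphingolipid synthesis begins at serine palmitoyltransferase, and the 9 genes described here encode that enzyme, the enzymes that follow it and the ORMDL proteins that restrain it. SPTLC1, SPTLC2 and SPTLC3 are catalytic subunits, SPTSSA is a small activating subunit, KDSR and DEGS1 are a reductase and a desaturase further along the route, and ORMDL1, ORMDL2 and ORMDL3 are the inhibitors. They were taken by gene symbol, and all 9 were found among the 19672 genes of the count table. All 9 also passed the low-count filter, with 13299 genes in all, although SPTLC3 passed only through the scramble libraries.

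Serine palmitoyltransferase sits in the membrane of the endoplasmic reticulum and joins serine to a fatty acyl-CoA, the rate-limiting step of the route. SPTLC1 forms the core with either SPTLC2 or SPTLC3, and the partner and the small subunit together set activity and acyl chain preference. ORMDL proteins bind the enzyme and hold it back when ceramide is plentiful, a brake that works largely through protein contacts and is not read out by transcript levels. Colorectal epithelium uses the products as membrane lipids and as ceramide signals.

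The libraries came from SW620, an established human colorectal cancer epithelial line, transduced with lentiviral shRNA constructs and kept under puromycin at 1 µg/mL. C3 and C6 are stable lines with an shRNA against DKC1, the pseudouridine synthase of H/ACA ribonucleoproteins that also stabilises telomerase RNA, and the scramble line carries a non-targeting shRNA, so all 3 groups share vector and selection. Each group has 2 libraries, called biological replicates in their titles. Nothing states that they came from separate cultures or lines, so p-values here measure the spread between these libraries only, and C3 and C6 each stand for 1 line. The labels do not say which of the study's shRNAs each line carries.

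Libraries held between 26077966 and 31021000 counts, so that 3 counts, the limit that a count of 0 allows, equalled 0.0967 to 0.115 CPM, counts scaled to a common library size. All 6 carry the same batch tag. DKC1, the targeted gene, stood at 144 and 149 CPM in C3, 70.3 and 67.1 CPM in C6, and 320 and 315 CPM in scramble, with log2 fold changes of -1.11 in C3 and -2.21 in C6 (edgeR adjusted p 4.29e-09 and 3.46e-12). The genotype tag of C3 replicate 1 reads control while its title reads knockdown, and its DKC1 level lay beside that of C3 replicate 2. Of 12 epithelial markers 9 reached 1 CPM, with CDX1 at 0. The summed level of the 12 was 6890 to 7086 CPM in C3, 8962 to 9068 CPM in C6 and 8494 to 9140 CPM in scramble. KRT8, KRT18 and KRT19 made up most of it, so the sum says little of the others. CDH1 averaged 58.1 CPM in C3, 183 CPM in C6 and 225 CPM in scramble. VIL1 was ordered otherwise, at 370 CPM in C3, 138 CPM in C6 and 292 CPM in scramble. In edgeR, of 11 tested, 1 was higher and 7 lower in C3, and 3 higher and 4 lower in C6, beside 24.3% (C3) and 46.7% (C6) of all genes called in either direction. Fibroblast markers summed to 25.0 to 30.0 CPM in C3, 13.2 CPM in C6 and 18.4 to 20.2 CPM in scramble, with 2 of 5 at 1 CPM or more and COL1A2, COL3A1 and DCN at 0. Leukocyte markers summed to 10.7 to 10.8 CPM in C3, 33.2 to 40.2 CPM in C6 and 15.2 to 17.0 CPM in scramble, all but a trace of it CD68, with PTPRC and CD3E at 0. Endothelial markers summed to 3.24 to 3.36 CPM in C3, 5.25 to 5.73 CPM in C6 and 5.51 to 6.28 CPM in scramble, with 1 of 3 at 1 CPM or more and CDH5 at 0. The part of these markers in the results was not tested.

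The question put to the count table was how the route stood in each DKC1 knockdown line. In C6, SPTLC2, SPTSSA and ORMDL1 fell and ORMDL2 rose, so 3 members were lower and 1 was higher of 9, although ORMDL1 was not lower once the median change of its chromosome neighbours was removed. In C3, SPTLC2 and KDSR fell and no member rose. A call is a p under 0.05 in the quasi-likelihood test of edgeR after Benjamini-Hochberg adjustment over the 13299 genes. Of these genes 46.7% were called in C6 (23.8% higher and 22.8% lower) and 24.3% in C3 (12.4% higher and 11.9% lower). The members' shares, 4 of 9 in C6 and 2 of 9 in C3, lie near those backgrounds. The median log2 fold change of the members was 0.01 in C6 and -0.03 in C3, against -0.01 in C6 and 0.00 in C3 over all genes tested.

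**Figure D1:**
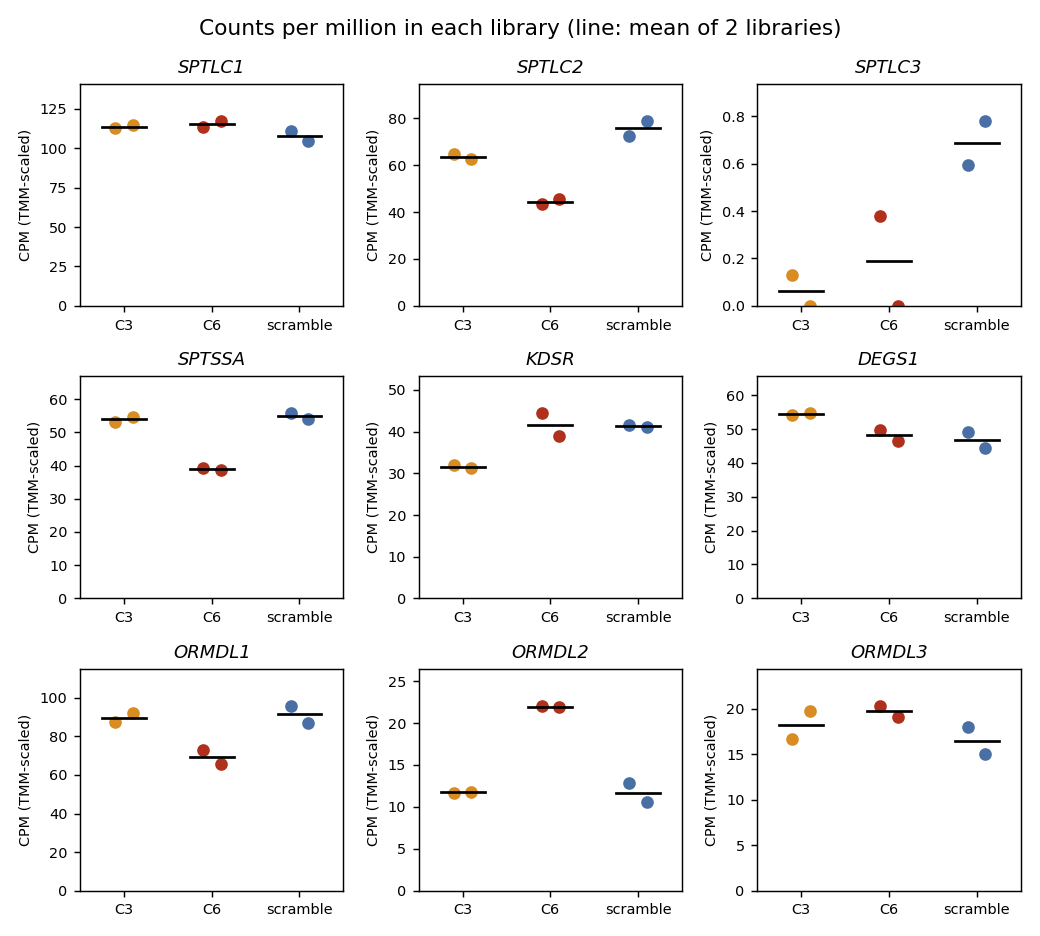
Level of each of the 9 members in every library, in CPM, with C3 and C6 left of scramble and a bar at each group's mean. SPTLC2 stands at 43.4 and 45.4 CPM in C6 against 72.5 and 79.0 CPM in scramble, and ORMDL2 at 22.1 and 21.9 CPM in C6 against 12.9 and 10.6 CPM in scramble.

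Among the catalytic subunits, SPTLC1 (chr9:92031147-92115413 in GRCh38.p14) is common to every form of the enzyme and moved little. It stood at 112.5 and 114.6 CPM in C3, 113.7 and 117.4 CPM in C6, and 111.0 and 104.4 CPM in scramble. All 4 knockdown libraries lay above both scramble libraries, but by little, and neither line passed the test (C3 log2 fold change 0.08 ± 0.06 SE, C6 0.10 ± 0.06, with edgeR adjusted p of 0.429 and 0.207). SPTLC1 was the only member that lay above scramble in this way, an arrangement found in 15.0% of all genes tested. SPTLC1 shares runs of 57 to 164 identical bases with its annotated pseudogenes, which are 121 to 261 bases long. The longest run is over the 150-base read, so reads of the gene and of those copies may have been divided in the authors' counting.

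SPTLC2 (chr14:77505997-77616637), the partner that carries the catalytic lysine, had the largest drop of the members called in a single line. The 250 bases before its annotated 5′ end are shown for the members that moved in C6, since they hold the promoter letters to set beside the values; capitals mark matches to a CCAAT box (CCAAT), a GC box (GGGCGG), an E-box (CACGTG) and the core of a cAMP response element (TGACG) on either strand. That of SPTLC2 is chr14:77616638-77616887 on the minus strand, from RefSeq GRCh38.p14, printed 5′ to 3′.
SPTLC2: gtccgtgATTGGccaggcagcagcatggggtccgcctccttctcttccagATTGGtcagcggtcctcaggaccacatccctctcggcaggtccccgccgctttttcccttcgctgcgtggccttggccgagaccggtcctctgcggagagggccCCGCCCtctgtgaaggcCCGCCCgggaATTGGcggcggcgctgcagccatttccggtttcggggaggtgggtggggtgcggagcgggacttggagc
It holds 3 CCAAT boxes, all on the opposite strand as ATTGG, and 2 GC boxes, with 68.4% G and C. Over 24882 promoters of the same length, 33.4% hold a CCAAT box, 41.7% a GC box, 21.7% the TGACG core and 6.43% the E-box, and such matches describe the letters only.

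SPTLC2 stood at 64.9 and 62.4 CPM in C3, 43.4 and 45.4 CPM in C6, and 72.5 and 79.0 CPM in scramble. Each group lay clear of the others, with C6 lowest and C3 between, and all 4 knockdown libraries lay below both scramble libraries, as they did for 15.2% of genes tested. In C6 the level fell by 41.3%, with a log2 fold change of -0.77 ± 0.07 (SE) and an edgeR adjusted p of 8.25e-07. In C3 it fell by 15.9%, with -0.25 ± 0.07 and an adjusted p of 0.0206. In bulk RNA, a lower level in every cell and fewer cells that make the transcript cannot be told apart, here or for the genes that follow. The C3 call was lost without scramble replicate 2 (adjusted p = 0.177), C3 replicate 1 (adjusted p = 0.0694) and C3 replicate 2 (adjusted p = 0.16). The C6 effect exceeded the C3 effect in the test of their difference, which was -0.52 ± 0.07 on the log2 scale with an edgeR adjusted p of 3.67e-05.

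SPTLC3 (chr20:13008972-13169103), the partner that admits other acyl chains, was barely detected. Its raw counts were 4 and 0 in C3, 10 and 0 in C6, and 16 and 21 in scramble, with 1 library of each knockdown line at 0. Since the gene passed the low-count filter only through scramble, where it is highest, no change is read from its fit. The edgeR adjusted p was 0.0525 in C3 (0.0368 to 0.256 over the alternatives), 0.14 in C6 (0.0329 to 0.538) and 0.0357 for the mean of both lines (0.0133 to 0.434).

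SPTSSA (chr14:34432788-34462240) encodes the small subunit that raises the activity of the catalytic pair. Its promoter is chr14:34462241-34462490 on the minus strand.
SPTSSA: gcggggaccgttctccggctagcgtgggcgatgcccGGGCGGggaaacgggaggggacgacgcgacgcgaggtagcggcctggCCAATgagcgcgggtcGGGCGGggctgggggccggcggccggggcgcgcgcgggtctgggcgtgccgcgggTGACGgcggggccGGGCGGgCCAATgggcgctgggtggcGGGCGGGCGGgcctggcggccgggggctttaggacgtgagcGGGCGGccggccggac
It holds 2 CCAAT boxes, 6 GC boxes, some overlapping, and 1 TGACG core, with 82% G and C. SPTSSA stood at 53.2 and 54.6 CPM in C3, 39.4 and 38.6 CPM in C6, and 55.8 and 54.1 CPM in scramble. C6 lay far below, while the C3 and scramble libraries overlapped. In C6 the level fell by 29.1% (log2 fold change -0.50 ± 0.07 SE, edgeR adjusted p 6e-05), and in C3 it was -0.03 ± 0.07 (adjusted p 0.824). The effects of C6 and C3 differed by -0.47 ± 0.07 (edgeR adjusted p 8.45e-05). EGLN3, a prolyl hydroxylase, overlaps SPTSSA on the same strand in GENCODE v29, over 29568 bases, no shorter than the span given above. EGLN3 averaged 4.68 CPM in C3, 2.74 CPM in C6 and 6.79 CPM in scramble (C6 log2 fold change -1.30, edgeR adjusted p 0.000135). No source used here states how reads of the overlap were assigned. SPTSSB, the other small subunit, summed to 0 counts in C3, 0 in C6 and 5 in scramble and was not tested.

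Downstream of the condensation, KDSR (chr18:63327726-63367206) reduces the first product to a sphingoid base. It stood at 31.9 and 31.2 CPM in C3, 44.4 and 38.9 CPM in C6, and 41.7 and 41.0 CPM in scramble. Only C3 stood apart, below every other library, whereas C6 spanned scramble. In C3, KDSR fell by 23.7% (log2 fold change -0.39 ± 0.09 SE, edgeR adjusted p 0.00349), a call kept without C3 replicate 1 (adjusted p 0.0211) and under all the alternatives tried (0.00167 to 0.0356). In C6 it was 0.01 ± 0.08 (edgeR adjusted p 0.925), and C6 was higher than C3 by 0.40 ± 0.09 (adjusted p 0.00119).

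DEGS1 (chr1:224183240-224193441) inserts the double bond that makes ceramide from dihydroceramide. It stood at 54.1 and 54.7 CPM in C3, 49.8 and 46.6 CPM in C6, and 49.3 and 44.3 CPM in scramble. Both C3 libraries lay above scramble and C6 overlapped it, but the C3 difference of 0.22 ± 0.08 (log2 fold change, SE) missed the threshold at an edgeR adjusted p of 0.0575. It was called without scramble replicate 1 (adjusted p 0.047) and with the median change of its 51 nearest tested genes removed (0.0447). In C6 the log2 fold change was 0.04 ± 0.08 (edgeR adjusted p 0.687). DEGS2, the related hydroxylase and desaturase, summed to 0 counts in C3, 5 in C6 and 9 in scramble and was not tested.

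The ORMDL genes encode 3 closely related proteins, and the coding sequences show how far they can be told apart by reads. Each coding region is 459 bases without the stop codon, from GENCODE v29, and the first 90 bases are given for ORMDL1 and ORMDL2, the members that moved in C6, with capitals at the 28 positions where they differ.
ORMDL1: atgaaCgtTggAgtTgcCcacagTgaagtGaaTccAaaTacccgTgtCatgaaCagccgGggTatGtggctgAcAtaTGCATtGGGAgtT
ORMDL2: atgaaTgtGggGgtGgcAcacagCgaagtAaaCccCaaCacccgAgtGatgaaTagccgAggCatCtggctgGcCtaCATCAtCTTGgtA
Over the whole coding region, identity was 73.2% between ORMDL1 and ORMDL2, 68.8% between ORMDL1 and ORMDL3 and 73.9% between ORMDL2 and ORMDL3. The longest run of identical bases between any pair of their transcripts was 17, far short of a 150-base read, so the members are separable in sequence.

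ORMDL1 (chr2:189763859-189784339) fell in C6. Its promoter is chr2:189784340-189784589 on the minus strand.
ORMDL1: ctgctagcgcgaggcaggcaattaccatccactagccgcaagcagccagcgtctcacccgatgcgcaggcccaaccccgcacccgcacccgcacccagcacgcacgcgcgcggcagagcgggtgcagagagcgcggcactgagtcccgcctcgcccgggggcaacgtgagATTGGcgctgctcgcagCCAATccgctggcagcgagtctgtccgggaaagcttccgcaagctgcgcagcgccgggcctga
It holds 2 CCAAT boxes, 1 on each strand, and no GC box, with 70.4% G and C. ORMDL1 stood at 87.2 and 91.9 CPM in C3, 72.8 and 65.6 CPM in C6, and 95.8 and 86.7 CPM in scramble. C6 lay below the other libraries, while C3 fell within the scramble range. In C6 the level fell by 24.2% (log2 fold change -0.40 ± 0.08 SE, edgeR adjusted p 0.000526), C3 was -0.03 ± 0.08 (adjusted p 0.835), and the lines differed by -0.37 ± 0.08 (adjusted p 0.000818).

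Genes around ORMDL1 on chromosome 2 were lower in C6 as well. The median log2 fold change of the 51 nearest tested genes was -0.56 in C6 and -0.07 in C3, and the partly overlapping gene PMS1, on the opposite strand, averaged 38.2 CPM in C3, 26.9 CPM in C6 and 43.6 CPM in scramble. With the neighbours' median taken out of each gene's value, ORMDL1 in C6 was 0.17 and was not called (edgeR adjusted p 0.093), and the difference between C6 and C3 was 0.12 (adjusted p 0.195). The ORMDL1 call in C6 was therefore the one member call there that this alternative ended, and its sign turned. What moves the neighbours was not tested. Around the other members the neighbours' median lay between -0.08 and 0.15 in C3 and in C6, SPTLC3 apart.

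**Figure D2:**
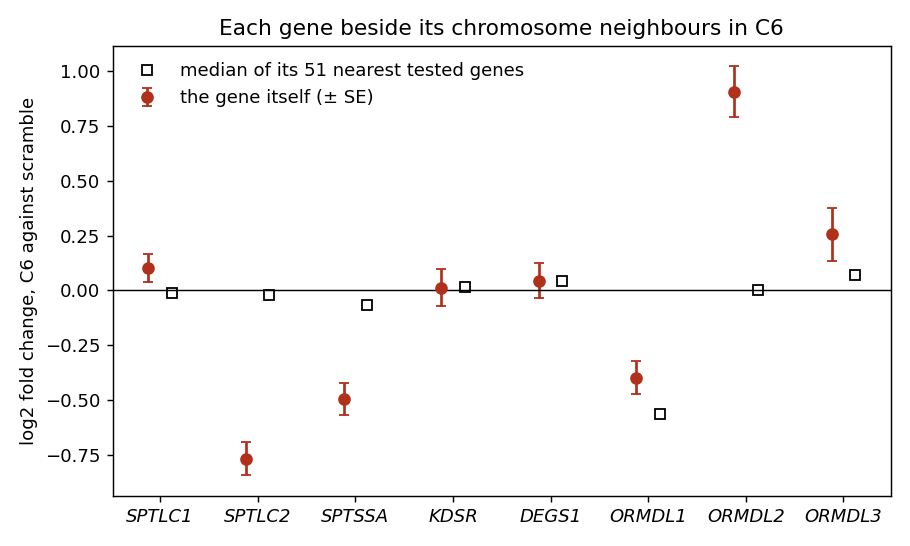
Log2 fold change in C6 relative to scramble of 8 members (filled points, bars are the SE), each beside the median of its 51 nearest tested genes (open squares), with SPTLC3 left out for its few counts. ORMDL1 is at -0.40 with neighbours at -0.56, while SPTLC2 is at -0.77 with neighbours at -0.02.

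ORMDL2 (chr12:55818041-55821879) was the member that rose. Its promoter is chr12:55817791-55818040 on the plus strand.
ORMDL2: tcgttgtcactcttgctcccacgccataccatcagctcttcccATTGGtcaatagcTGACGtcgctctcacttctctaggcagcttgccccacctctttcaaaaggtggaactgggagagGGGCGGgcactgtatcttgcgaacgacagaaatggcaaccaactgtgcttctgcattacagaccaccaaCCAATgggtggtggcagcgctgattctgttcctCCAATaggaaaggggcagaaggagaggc
It holds 3 CCAAT boxes, 1 GC box and 1 TGACG core, with 54% G and C. ORMDL2 stood at 11.7 and 11.7 CPM in C3, 22.1 and 21.9 CPM in C6, and 12.9 and 10.6 CPM in scramble. Only C6 stood apart, above every other library. The C6 level was 1.87-fold that of scramble (log2 fold change 0.91 ± 0.12 SE, edgeR adjusted p 1.48e-05), and the C3 value was 0.00 ± 0.12 (adjusted p 0.996). The lines differed by 0.90 ± 0.12 (adjusted p 1.12e-05), and no alternative lost the C6 call, where the adjusted p ranged from 3.59e-07 to 0.000929. DNAJC14, which overlaps ORMDL2 on the opposite strand, averaged 71.8 CPM in C3, 76.2 CPM in C6 and 77.3 CPM in scramble, and was called in neither line (edgeR adjusted p 0.374 in C3 and 0.852 in C6). The overlap with DNAJC14 spans 920 bases. Another annotated protein-coding gene on the opposite strand, AC023055.1, overlaps ORMDL2 over 3961 bases in GENCODE v29 and is not among the genes counted. No source used here states whether strand was used in counting.

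ORMDL3 (chr17:39921041-39927601), known from asthma genetics, stood at 16.6 and 19.8 CPM in C3, 20.3 and 19.1 CPM in C6, and 17.9 and 15.0 CPM in scramble. C6 lay above scramble and C3 overlapped it. Neither line passed the test, with log2 fold changes of 0.14 ± 0.12 (SE, edgeR adjusted p 0.436) in C3 and 0.26 ± 0.12 (adjusted p 0.0941) in C6. Without scramble replicate 1 the C6 value was called (adjusted p 0.0497).

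**Figure D3:**
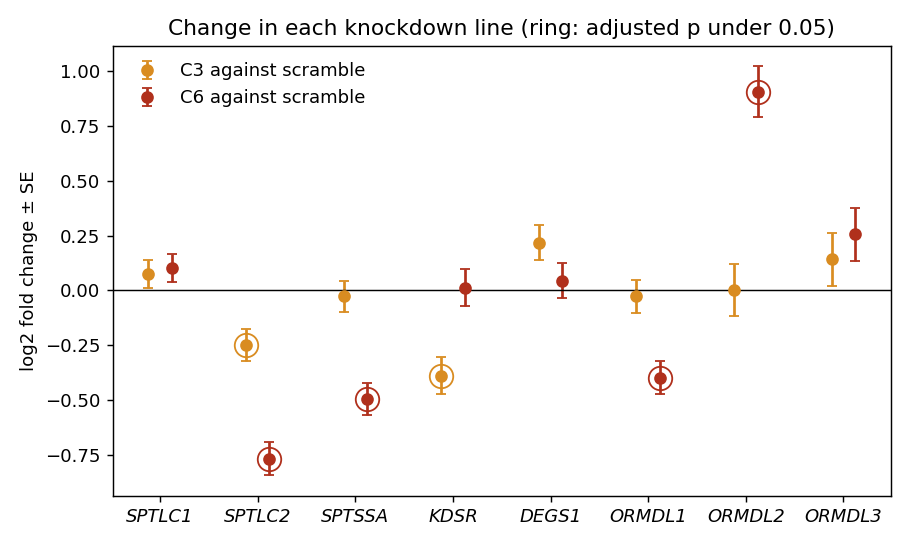
Log2 fold change with its standard error for 8 members in C3 and C6 relative to scramble, with a ring around each called value and SPTLC3 left out for its few counts. ORMDL2 in C6 stands at 0.91 and SPTLC2 in C6 at -0.77, whereas in C3 the farthest value from 0 is KDSR at -0.39.

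C6 and C3 were also set against each other. ORMDL2 and KDSR were higher in C6, and SPTLC2, SPTSSA and ORMDL1 were lower, so 2 members were higher where 25.1% of genes tested were, and 3 lower where 24.1% were, or 5 of 9 in all against 49.2%. Of the 9, only SPTLC2 was called in the same direction in both lines, while none was called higher in both or with opposite signs. Over all genes tested, 4.59% were lower in both, 5.44% higher in both and 4.93% of opposite sign, and the comparisons share the scramble libraries. For the mean of both lines, edgeR called 1 member higher, ORMDL2 (0.45 ± 0.10 SE on the log2 scale, adjusted p 0.00362), and, SPTLC3 apart, 3 lower, SPTLC2 (-0.51, 1.94e-05), SPTSSA (-0.26, 0.00482) and ORMDL1 (-0.21, 0.0198), where 32.9% of genes tested were called (16.6% higher and 16.3% lower). Among these, SPTSSA and ORMDL1 lost the call without scramble replicate 1 (adjusted p 0.0524 and 0.251), ORMDL1 also without C3 replicate 1 (0.0635) and C6 replicate 2 (0.0681) and with the neighbours' median removed (0.10, adjusted p 0.261), and ORMDL2 without scramble replicate 2 (0.0857). ORMDL2, SPTSSA and ORMDL1 were called in C6 but not in C3, where they stood at 0.00, -0.03 and -0.03. Their means over both lines therefore rest on C6. With all 4 knockdown libraries as 1 group, no member was called and 80 genes were.

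Levels can be compared between genes only per length, and RPKM, the CPM divided by length in kilobases, was computed on the longest coding transcript. In scramble the order was SPTLC1 at 56.9 RPKM, ORMDL1 at 33.9, DEGS1 at 22.3, SPTSSA at 19.8, SPTLC2 at 9.27, KDSR at 7.59, ORMDL3 at 7.39, ORMDL2 at 5.47 and SPTLC3 at 0.112. In that order KDSR and ORMDL3 did not differ beyond their spread. C3 kept the order of the 4 highest, followed by ORMDL3 at 8.16, SPTLC2 at 7.79, KDSR at 5.79, ORMDL2 at 5.48 and SPTLC3 at 0.0105, with the libraries of ORMDL3 and SPTLC2 overlapping. On this length the same 4 led in C6, and ORMDL2 came next at 10.3, above ORMDL3 at 8.83, KDSR at 7.65, SPTLC2 at 5.44 and SPTLC3 at 0.0308. With the mean length of coding transcripts in place of the longest, ORMDL2 stood above ORMDL3 in scramble, at 11.7 against 11.1 RPKM. In C3 the mean length put SPTLC2 at 13.1, ORMDL3 at 12.2, ORMDL2 at 11.7 and KDSR at 11.6. In C6 it put ORMDL2, at 21.9, and KDSR, at 15.4, above SPTSSA, at 14.0, so the order below DEGS1 depends on the length used.

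The summed ORMDL level overlapped between the groups, but its make-up differed in C6. The ORMDL1 part of that rests on a fall in C6 that was not called with its neighbours' median removed (0.17, edgeR adjusted p 0.093). The sum was 46.9 ± 2.24 RPKM in C3, 44.8 ± 2.36 in C6 and 46.8 ± 4.07 in scramble (SD, n = 2 each). ORMDL1 made up 70.9 ± 0.759% of it in C3, 57.4 ± 1.20% in C6 and 72.6 ± 1.21% in scramble. ORMDL2 made up 11.7 ± 0.544% in C3, 22.9 ± 1.05% in C6 and 11.7 ± 0.593% in scramble, so the C6 share lay clear of the rest. ORMDL3 made up 17.4 ± 1.30% in C3, 19.7 ± 0.143% in C6 and 15.8 ± 0.619% in scramble. These shares describe transcripts, with no test, and with the mean transcript length the ORMDL2 share was 13.9% in C3, 26.8% in C6 and 13.8% in scramble. For the enzyme, the ratio of SPTLC2 to SPTLC1 RPKM was 0.130 in C3, 0.0891 in C6 and 0.163 in scramble, and that of SPTSSA to SPTLC1 was 0.324 in C3, 0.230 in C6 and 0.348 in scramble.

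**Figure D4:**
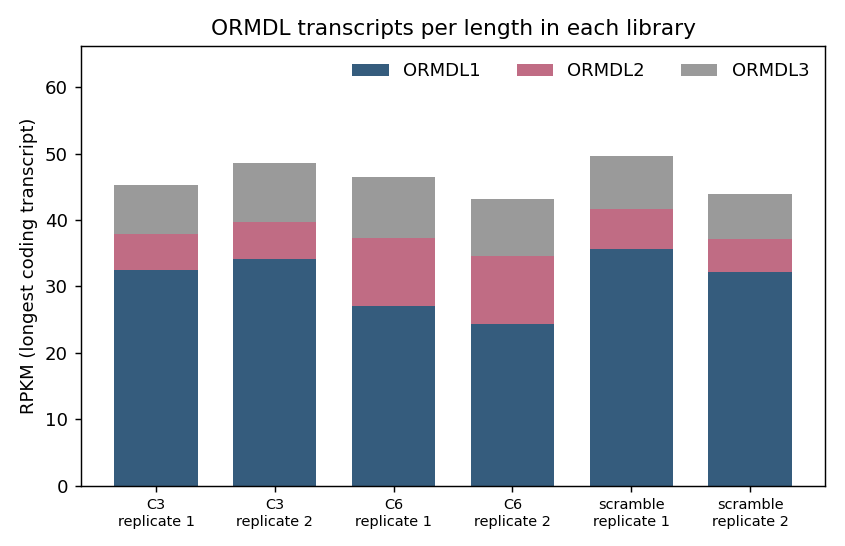
Stacked bars of ORMDL1, ORMDL2 and ORMDL3 RPKM in each library, with C3 and C6 left of scramble. The bars are of like height, while the ORMDL2 band averages 10.3 RPKM in C6 and 5.47 RPKM in scramble.

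By Pearson correlation of log2 CPM over the 6 libraries, among 10301 genes compared (10302 for SPTLC3), the genes most like SPTLC2 were ATG13 (r = 0.9992), TRIM2 (0.9985) and ALDH5A1 (0.9972), and 387 genes exceeded 0.95. For ORMDL2 they were RNPS1 (0.9974), AEN (0.9973) and ITPA (0.9973), with 623 over 0.95, for KDSR SAV1 (0.9961), and for ORMDL1 SIX5 (0.9983). The nearest to DEGS1 was NDUFA8 (0.9966), to ORMDL3 ATRAID (0.9943), to SPTLC3 ZBTB6 (0.9839) and to SPTLC1 NKAP (0.9715). The points are 3 groups of 2 libraries, so such values can follow the order of the groups and describe likeness only. SPTLC3 was barely detected, and its C3 and C6 libraries overlapped. Its value therefore rests on very few counts, and no likeness is read from it.

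Genes around the route were read from lists of its neighbours. Of the 7 genes listed under serine supply, 4 were higher and none lower in C3, and none was higher and 5 lower in C6. All 7 were lower in C6 than in C3. The 5 include SHMT1 (-0.39) and SHMT2 (-0.42), serine hydroxymethyltransferases, which act on serine itself. Over all genes tested, 12.4% were higher in C3, 22.8% lower in C6 and 24.1% lower in C6 than in C3. PSAT1, the phosphoserine aminotransferase, averaged 688 CPM in C3, 348 CPM in C6 and 498 CPM in scramble. It rose in C3 by 0.47 on the log2 scale (edgeR adjusted p 4.13e-05) and fell in C6 by 0.52 (adjusted p 5.69e-06). PSPH, the phosphatase that ends serine synthesis, averaged 261 CPM in C3, 160 CPM in C6 and 205 CPM in scramble, with log2 fold changes of 0.35 in C3 (edgeR adjusted p 0.000536) and -0.35 in C6 (adjusted p 0.000247). For the mean of both lines, SLC1A4, a serine and alanine carrier, was -0.20 (edgeR adjusted p 0.0197) and SHMT2, which turns serine into glycine, -0.13 (adjusted p 0.0442). SLC1A4 lost that call without any 1 of 5 libraries (all but C6 replicate 2) and SHMT2 without any 1 of the 6, at adjusted p of 0.0511 to 0.161 for SLC1A4 and 0.0735 to 0.245 for SHMT2, while PHGDH (0.15, adjusted p 0.0502) was not called, but was with no low-count filter (0.0399), with the neighbours' median removed (0.0465) and without C3 replicate 1 (0.0365).

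Fatty acyl-CoA supply was tested through 8 of 9 listed genes, of which none was higher and 5 lower in C3, and 2 were higher and 4 lower in C6, beside 11.9% of all genes lower in C3, and 23.8% higher and 22.8% lower in C6. ACSL3, an acyl-CoA ligase, averaged 180 CPM in C3, 109 CPM in C6 and 212 CPM in scramble, with a mean log2 fold change of -0.60 (edgeR adjusted p 5.75e-07), beside a neighbours' median of -0.37 in C6. FASN, the fatty acid synthase, averaged 375 CPM in C3, 227 CPM in C6 and 431 CPM in scramble (-0.56, edgeR adjusted p 2.38e-05). SCD, the stearoyl desaturase, averaged 435 CPM in C3, 443 CPM in C6 and 637 CPM in scramble (-0.54, edgeR adjusted p 3.28e-06). ACSL5 and ACSL1, also acyl-CoA ligases, had opposite signs in the lines: ACSL5 was -0.41 in C3 (edgeR adjusted p 0.0204) and 0.63 in C6 (0.000371), and ACSL1 was -0.37 in C3 (0.0172) and 0.33 in C6 (0.0172). The C3 calls were lost without either scramble library or C3 replicate 2 for both genes (adjusted p 0.0598 to 0.221), and ACSL5 also without C3 replicate 1 (0.0526), with DESeq2 (0.0819) and with the neighbours' median removed (0.0668). The ACSL1 call in C6 was lost without scramble replicate 2 (0.116) and C6 replicate 1 (0.137). Genes around ACSL1 had a median of -0.55 in C3 and -0.47 in C6, and with it removed ACSL1 in C3 was 0.18 and not called (edgeR adjusted p 0.253).

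In the rest of the ceramide route, 5 of 8 genes were tested, with none called in C3 and 1 higher and 2 lower in C6, beside 24.3% of all genes called in C3 and 46.7% in C6. Among the ceramide synthases, CERS6 averaged 168 CPM in C3, 110 CPM in C6 and 169 CPM in scramble (mean log2 fold change -0.32, edgeR adjusted p 0.000366). That call was lost with the neighbours' median removed (-0.09, adjusted p 0.224), the genes around it being at -0.50 in C6. CERS4 averaged 7.28 CPM in C3, 4.17 CPM in C6 and 8.24 CPM in scramble (-0.58, edgeR adjusted p 0.00358, or 0.0509 without scramble replicate 2). CERS2, the synthase of very long chains, averaged 213 CPM in C3, 230 CPM in C6 and 193 CPM in scramble (0.20, edgeR adjusted p 0.00542, or 0.0513 without scramble replicate 1).

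Of 7 genes that use ceramide, 1 was higher and none lower in C3, and 2 were higher and none lower in C6, below the shares called over all genes (24.3% in C3 and 46.7% in C6). CERK, the ceramide kinase, averaged 42.3 CPM in C3, 25.2 CPM in C6 and 25.1 CPM in scramble (mean log2 fold change 0.38, edgeR adjusted p 0.00182), and SGMS2, a sphingomyelin synthase, was at 0.33 (adjusted p 0.0132), a call lost without scramble replicate 1 (0.108) or 2 (0.0558). Of 11 genes that break down or recycle sphingoid bases, 10 were tested, with none higher and 1 lower in C3, and 2 higher and 2 lower in C6, again no more than the 24.3% in C3 and 46.7% in C6 over all genes. SGPL1, the lyase that ends the route, averaged 153 CPM in C3, 290 CPM in C6 and 150 CPM in scramble (0.49, edgeR adjusted p 1.31e-05). SGPP2, a sphingosine phosphate phosphatase, averaged 3.31 CPM in C3, 2.69 CPM in C6 and 13.2 CPM in scramble (-2.14, edgeR adjusted p 4.06e-08). RTN4, a reticulon reported to bind the enzyme, averaged 250 CPM in C3, 311 CPM in C6 and 223 CPM in scramble (0.32, edgeR adjusted p 0.00019). With all 4 knockdown libraries as 1 group, SGPP2 alone of the genes named here for the mean kept its call.

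**Figure D5:**
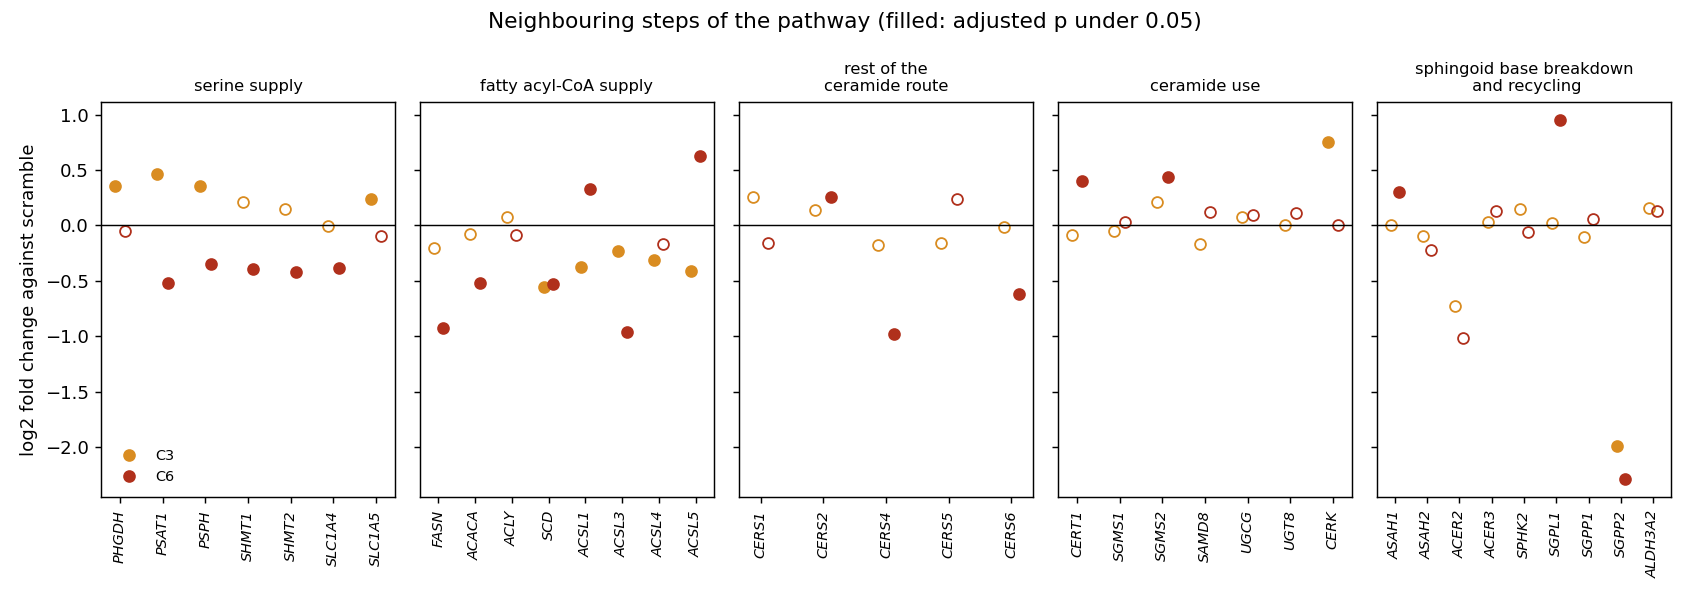
Log2 fold change of the listed genes around the route in C3 and in C6 relative to scramble, in 1 panel per list, for tested genes with a mean of at least 1 CPM, with called values filled. PSAT1 stands at 0.47 in C3 and -0.52 in C6.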

How the data were processed

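RNA from 6 SW620 libraries was sequenced as paired 150-base reads from a stranded poly(A) kit, per the labels' protocols. The deposited table holds whole-number counts per gene, made by the authors and not scaled between libraries. Per the submitters' processing notes, the build was hg38 and the software HISAT2 2.1.0, Trimmomatic 0.38, DESeq2 and StringTie 2.1.3b. Their order, and how reads were assigned to genes and strands, are stated in no source used here. StringTie estimates abundance, so the whole numbers may be rounded estimates, taken here as counts.

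Libraries were grouped by title. The members and lists were chosen with earlier results of these data known. Counts were scaled by TMM, filtered by filterByExpr (minimum count 10) and fitted in 3 groups, leaving 3 residual degrees of freedom, in edgeR 4.0.16 (R 4.3.3, robust quasi-likelihood), with Benjamini-Hochberg adjustment and a threshold of 0.05. Contrasts were C3, C6 and their mean against scramble, and C6 against C3. Genes named outside the members were up to 3 of each list with the smallest p for the mean of both lines, and those called with opposite signs in C3 and C6, besides DKC1 and the genes of highest correlation with a member (mean of at least 5 CPM). For SPTSSA these genes are not reported here, and for most other members only the first is. RPKM and shares carry no test. Positions and promoters are from RefSeq GRCh38.p14 (19450 genes matched), and lengths and coding sequence from GENCODE v29. Of the 9 members 8 had a promoter entry. Alternatives were RLE and upper-quartile scaling, no filter, a filter of 1 CPM in 2 libraries, DESeq2 1.42.0, a replicate block, removal of the median log2 fold change of the 51 nearest tested genes, the knockdown libraries as 1 group, and leaving out each library. Counting intervals and the limit from 3 counts cover counting error only. Replicates differed beyond counting noise (chi-square per degree of freedom 6.08 in C3, 8.30 in C6 and 7.57 in scramble).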

Additional observations from a re-analysis of the deposited data

Results flagged for a closer look

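For 22 of the 30 genes examined (the members, DKC1 and the listed genes chosen by the naming rule), the effect in C6 and the effect in C3 differed in edgeR's test of the difference itself, given here as the C6 effect minus the C3 effect on the log2 scale. This comparison called 49.2% of genes tested. The listed genes were picked from these same data, by small p or by opposite signs in C3 and C6. Their count therefore cannot be set against that share. Among the members, the differences were 0.90 for ORMDL2 and 0.40 for KDSR, and -0.52 for SPTLC2, -0.47 for SPTSSA and -0.37 for ORMDL1. The targeted gene DKC1 itself differed by -1.10.

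Among genes of serine supply, PSAT1 differed by -0.98, PSPH by -0.70, SHMT2 by -0.57, PHGDH by -0.40 and SLC1A4 by -0.38. Among the ceramide synthases, CERS4 differed by -0.80 and CERS6 by -0.61. Among genes of acyl-CoA supply, ACSL5 differed by 1.04 and ACSL1 by 0.70, and ACSL3 by -0.73 and FASN by -0.72. Among genes that use ceramide or break down its bases, SGPL1 differed by 0.93, CERT1 by 0.49 and ASAH1 by 0.29, and CERK by -0.75. RTN4 differed by 0.31. With the median change of the 51 nearest tested genes removed, the calls of ORMDL1 (0.12, edgeR adjusted p 0.195), CERS6 (-0.06, adjusted p 0.49) and CERT1 (0.11, adjusted p 0.438) were lost and ASAH1 was -0.25 (adjusted p 0.00694).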

How the results depend on the processing

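The C6 calls of SPTLC2, SPTSSA and ORMDL2 and the C3 call of KDSR held under every alternative run on them. Removing the neighbours' median turned ORMDL1 to 0.17 in C6, 0.10 in the mean and 0.12 for C6 against C3 (log2). It also turned uncalled C3 values of SPTSSA to 0.053, ORMDL1 to 0.041, ORMDL3 to -0.0033 and ORMDL2 to -0.016, KDSR in C6 to -0.0053, ACSL1 in C3 to 0.18, CERT1 in the mean to -0.021, and ASAH1 to -0.029 in the mean and -0.25 for C6 against C3. ORMDL2 in C3, at 0.00, was -0.0019 under RLE scaling, -0.035 under upper-quartile scaling, -0.0032 with the 1 CPM filter and -0.0020 with DESeq2. Upper-quartile scaling also gave KDSR -0.050 and DEGS1 -0.018 in C6. It called KDSR in the mean (-0.24, edgeR adjusted p 0.0219, against 0.0600 under TMM). It also called DEGS1 for C6 against C3 (-0.20, edgeR adjusted p 0.0499, against 0.0790 under TMM). Removing the neighbours' median called that DEGS1 difference as well (-0.23, edgeR adjusted p 0.0259). Upper-quartile scaling moved the share of higher calls among all calls to 41.7% against 51.2% in C3. That share was 41.6% against 51.1% in C6 and 37.2% against 50.5% in the mean. With the knockdown libraries as 1 group, 80 genes and 0 members were called. The causes were not tested.

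Leaving out each library in turn gave ranges that crossed 0 for ORMDL1 in C3 (-0.096 to 0.048), ORMDL2 in C3 (-0.13 to 0.15), KDSR in C6 (-0.085 to 0.11), DEGS1 in C6 (-0.031 to 0.12), and for C6 against C3 ORMDL3 (-0.0069 to 0.24) and SPTLC3 (-4.01 to 5.38). Genes called ranged from 1946 to 3267 in C3, 4584 to 6006 in C6, 2444 to 4041 in the mean and 5155 to 6423 for C6 against C3, and members called from 1 to 3 in C3, 4 to 5 in C6, 2 to 6 in the mean and 5 to 5 for C6 against C3. Where SPTLC3 was called, these member counts include it, although no change is read from its fit. An arm left with 1 library is assumed to vary like the others.

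The labels do not say whether same-numbered libraries share a source. Deviations of same-numbered libraries correlated at 0.0252 (C3 and C6), -0.0465 (C3 and scramble) and 0.0644 (C6 and scramble). With the replicate block, 2935 genes were called in C3, 5878 in C6, 4014 in the mean and 6243 for C6 against C3, and 3, 4, 5 and 5 members. These member counts include SPTLC3 in C3 (adjusted p 0.0454, edgeR) and in the mean, although no change is read from its fit. SHMT2 in the mean was not called (adjusted p 0.0959, edgeR).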

Other observations

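The promoters of SPTLC1, KDSR, DEGS1 and ORMDL3 held no CCAAT box or E-box. GC boxes numbered 2 for SPTLC1, 3 for KDSR, 4 for DEGS1 and 1 for ORMDL3, counted on both strands in 250 bases. ORMDL3 also held 2 TGACG cores, 1 on each strand, and the other 3 held none.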
